A study of Mus musculus with 3 samples.

Results

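Translation initiation and elongation factors are the proteins that load ribosomes onto mRNA and carry them along it. Their genes were taken as all symbols beginning with Eif1 to Eif6, Eef1 or Eef2 that have a protein-coding transcript, without the eIF2 alpha kinases, and 64 of 22015 nuclear coding genes met this rule. Another 11 genes with such symbols had no coding transcript and were left out, and 10 of them had no count in the gene table, though 4 of these had counts in the second transcript table deposited for each library. RNA bound to chromatin was sequenced as ribo-depleted total RNA from bone-marrow-derived macrophages of C57BL/6J mice, a primary cell grown from bone marrow. All 3 libraries had received 100 ng/ml Lipid A for 60 minutes. Lipid A, the membrane anchor of bacterial lipopolysaccharide, is recognised by Toll-like receptor 4. Replicate 1 started from 1 µg of RNA, replicate 2 from 250 ng and replicate 3 from 500 ng. No unstimulated library was analysed here, so every value is a level after stimulation. Sex and age were not recorded, and all libraries carried the same donor entry. The p-values below thus refer to the spread among these 3 libraries alone, and that spread may be technical.

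Initiation starts when eIF2, bound to GTP and the initiator tRNA, joins the small ribosomal subunit with eIF1, eIF1A, eIF3 and eIF5. The cap-binding protein eIF4E, the scaffold eIF4G and the helicase eIF4A bring this complex to the mRNA, and the 4E-BP proteins block that step when mTOR is inactive. During elongation eEF1A delivers aminoacyl-tRNA and eEF2 moves the ribosome by a codon. In macrophages, control of translation through eIF4E and eIF2 is known to shape cytokine output.

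Expected counts on annotated genes were 13318395, 15352661 and 15812581 in replicates 1, 2 and 3. A gene with no count could still have up to 3 counts, which is 0.225, 0.195 and 0.19 CPM (counts scaled to the library total) in those libraries, and this limit covers counting error only. All 10 macrophage markers reached 1 TPM, a length-scaled share of the library, in every library, with summed TPM between 942 and 1225. Ptprc, which other leukocytes also carry, had the highest mean of these, at 454 TPM. None of 22 markers of T cells, B cells, neutrophils, erythroid cells and fibroblasts reached 1 TPM in every library. The erythroid marker Alas2 averaged 1.86 TPM and the T cell marker Cd4 1.14. The markers listed for the labelled cell type were thus present. In bulk RNA, fewer cells of a type and less RNA per cell cannot be told apart.

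Promoters of 48 of the 64 factor genes had an entry in the RefSeq table of build GRCm38.p6, from 250 bases before the start to 50 after it. The windows below run from 90 bases before the start to 30 after it, and show the 6 highest factor genes with an entry, together with Eef2 and Eif3c, which hold several marked motifs. Capitals mark the E-box CACGTG, the ETS word CCGGAAG, the word TGACG of the cyclic AMP response element and a run of C followed by at least 5 C or T near the start. All motifs except that run were read on both strands.
Eef1a1 (chr9:78481695-78481814, minus strand): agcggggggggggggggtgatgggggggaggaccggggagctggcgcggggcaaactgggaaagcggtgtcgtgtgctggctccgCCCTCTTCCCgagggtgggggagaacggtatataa
Eif4a1 (chr11:69672394-69672513, minus strand): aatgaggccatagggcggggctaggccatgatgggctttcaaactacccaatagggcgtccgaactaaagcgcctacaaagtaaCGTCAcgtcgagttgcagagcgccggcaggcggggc
Eif5 (chr12:111538011-111538130, plus strand): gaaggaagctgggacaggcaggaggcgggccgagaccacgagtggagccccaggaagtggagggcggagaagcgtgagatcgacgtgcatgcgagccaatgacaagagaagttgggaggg
Eif4a2 (chr16:23107378-23107497, plus strand): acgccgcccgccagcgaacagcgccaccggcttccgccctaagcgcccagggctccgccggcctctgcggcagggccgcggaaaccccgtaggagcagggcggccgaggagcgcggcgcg
Eif3a (chr19:60790664-60790783, minus strand): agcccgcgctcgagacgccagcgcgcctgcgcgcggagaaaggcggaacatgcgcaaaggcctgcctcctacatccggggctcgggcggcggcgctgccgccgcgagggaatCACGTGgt
Eif4g1 (chr16:20672637-20672756, plus strand): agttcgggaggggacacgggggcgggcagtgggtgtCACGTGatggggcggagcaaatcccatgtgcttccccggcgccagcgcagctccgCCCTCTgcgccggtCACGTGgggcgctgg
Eef2 (chr10:81176541-81176660, plus strand): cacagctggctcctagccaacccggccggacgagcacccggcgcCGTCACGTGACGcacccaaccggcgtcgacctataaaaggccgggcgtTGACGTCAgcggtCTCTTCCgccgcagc
Eif3c (chr7:126566337-126566456, minus strand): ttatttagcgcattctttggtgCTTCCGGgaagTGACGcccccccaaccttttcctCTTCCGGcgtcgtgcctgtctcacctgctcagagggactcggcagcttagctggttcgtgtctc

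In the full windows CCGGAAG occurred in 14 of 48 factor promoters (29.2%), against 21.4% of 6313 promoters of detected coding genes and 9.12% of all 27025 promoters. Eif3c, Eif3d, Eif3g, Eif3l and Eif3m, all subunits of eIF3, were among the 14. CACGTG occurred in 11 of 48 (22.9%), against 11% of detected coding genes and 7.24% of all. Eif4a1, Eif4g1, Eif4h, Eif3a and Eef2 were among those. TGACG occurred in 22 (45.8%, against 34.6% and 21%), and its palindrome TGACGTCA, which contains TGACG, in Eef2 alone (2.08%, against 3.53% and 1.88%). The GC box GGGCGG occurred in 36 (75%, against 66.5% and 35.9%) and CCAAT in 13 (27.1%, against 37.3% and 37.9%). Exact matches to 2 forms of the NF-kB site, both of 10 letters, occurred in 0 of 48, and in 0.206% and 0.158% of the promoters of detected coding genes. The pyrimidine run, searched on the transcribed strand from 10 bases before the start to 30 after it, occurred in 16 (33.3%, against 26.8% and 27.5%). Genes with CACGTG had a median of 10.4 TPM and those without it 8.94, while genes with CCGGAAG had 6.85 and those without it 10.5. These matches describe the letters only and show no binding.

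Most factor genes were present in chromatin RNA, and their level spanned from 259 TPM to no count. Counting a gene as detected when it had 1 TPM or more in each of the 3 libraries, 48 of 64 were detected, against 35.7% of nuclear coding genes. With the second transcript table, 57 of 64 were detected, against 49.8%. The median log2(TPM + 1) of the factor genes was 2.86, 3.27 and 3.13 in replicates 1, 2 and 3, against 0.21, 0.36 and 0.29 for nuclear coding genes. Their median was higher by 2.80 ± 0.14 (SD, n = 3), a difference that a large number of silent coding genes enters. Among detected genes only, the median was 3.66 for factor genes and 3.18 for coding genes. Factor genes held 0.359% ± 0.0177 of all gene expected counts. The 5 highest held 53.8% ± 3.17 of the summed TPM of all 64, and the 10 highest 75.5% ± 1.43. Just below the threshold lay Eif1ad and Eef2k, both with a lowest value of 0.75 TPM, Eif2b4 with 0.81 and Eif1b with 0.98, and just above it Eef1e1, Eef2kmt and Eif2b5 with 1.09, 1.58 and 1.89.

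**Figure D1:**
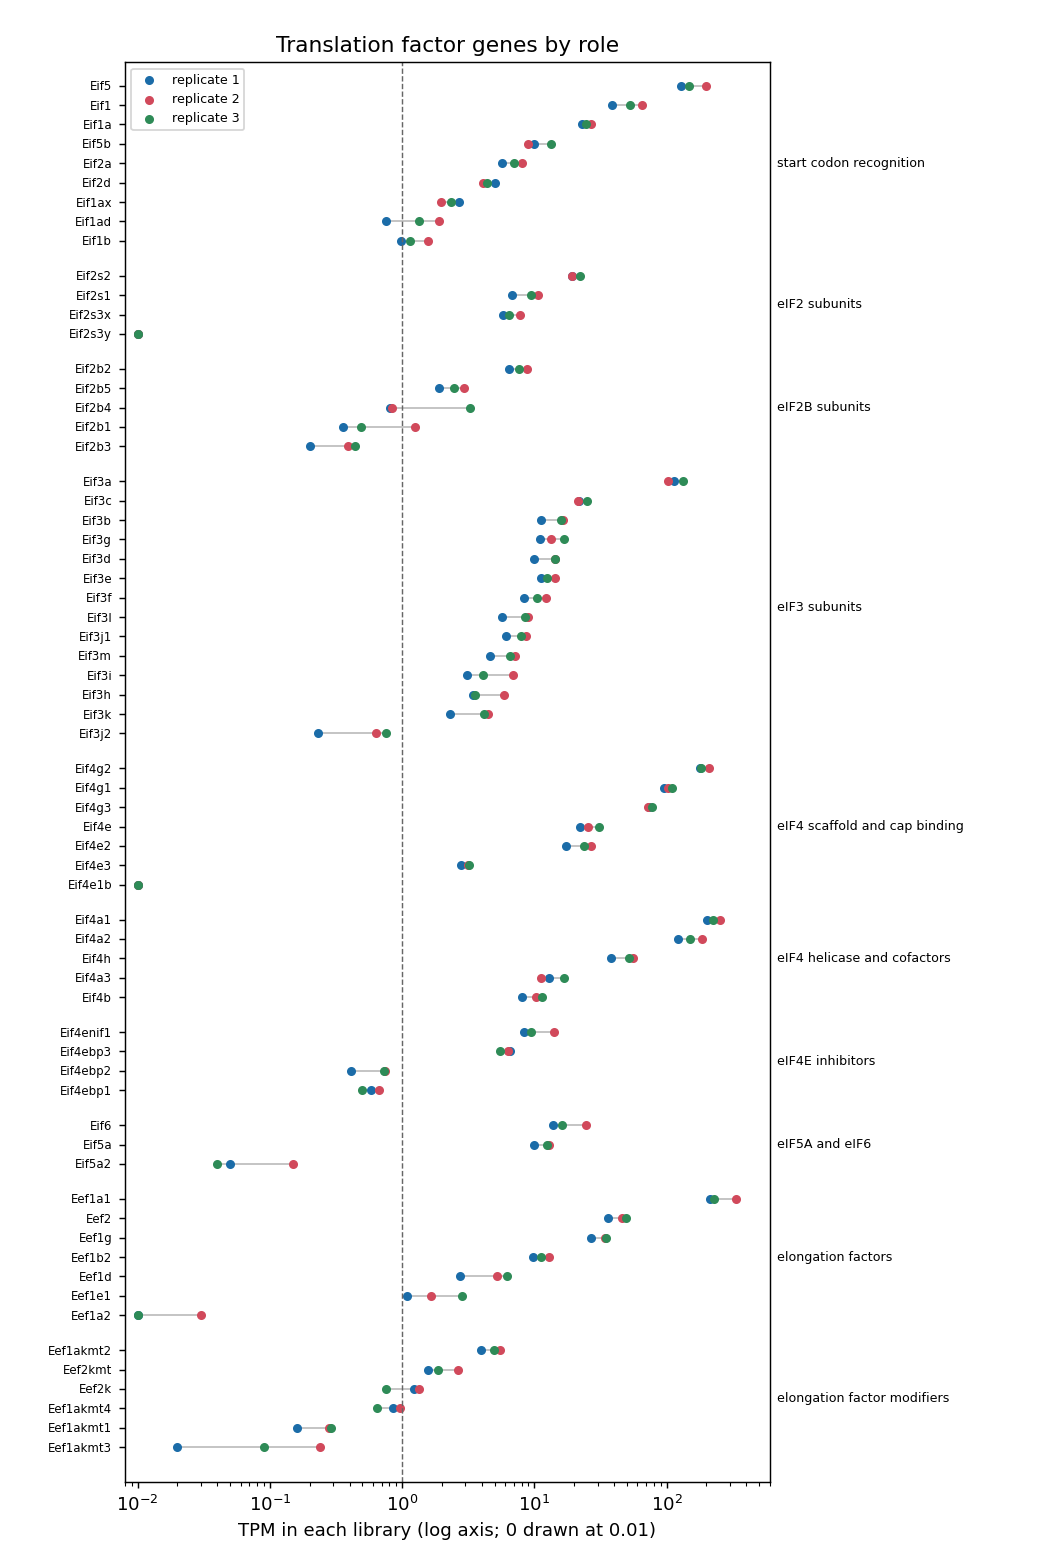
TPM of each of the 64 factor genes in replicates 1, 2 and 3 on a log axis, grouped by role, with a grey line over the range and a dashed line at 1 TPM. Eef1a1, Eif4a1 and Eif4g2 sit furthest to the right, and most eIF2B and elongation factor modifier genes straddle or lie left of the dashed line.

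Among factors that recognise the start codon, 7 of 9 were detected and the group held 14.2% of the summed TPM. Eif5, the GTPase-activating protein of eIF2, had 128, 197 and 148 TPM in replicates 1, 2 and 3. Eif1, which keeps start codon choice strict, had 38.5, 65.1 and 52.9 TPM. Both were highest in replicate 2 and lowest in replicate 1. Eif1a, which encodes eIF1A, had 22.8, 26.7 and 24.4 TPM, while Eif1b, the paralog of Eif1, had 0.98, 1.58 and 1.14 TPM. That was the lowest mean of the group in the gene table, but Eif1ad was lower in replicate 1, at 0.75 TPM, and in the second table, at 2.14 TPM against 4.23 for Eif1b.

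The eIF2 complex was covered by its alpha subunit Eif2s1 (6.76, 10.6 and 9.48 TPM), its beta subunit Eif2s2 (19.2, 19.2 and 22.3) and its gamma subunit Eif2s3x (5.77, 7.81 and 6.39). The Y-linked gamma copy Eif2s3y had no count in the gene table. The beta subunit gene stood above the other subunits in every library. Subunits of eIF2B, which recharges eIF2 with GTP, were lower, with a median log2(TPM + 1) of 1.27 ± 0.47 and 2 of 5 detected, against 4 of 5 in the second table, where Eif2b1 averaged 4.75 TPM, against 0.703 in the gene table. Eif2b2 led with 6.41, 8.77 and 7.66 TPM, followed by the catalytic subunit Eif2b5 with 1.89, 2.93 and 2.45. Eif2b3 was lowest at 0.2, 0.39 and 0.44 TPM. The 3.26 TPM of Eif2b4 in replicate 3, against 0.81 and 0.84 in replicates 1 and 2, came from 12 counts, as many as in replicate 2.

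Of 14 eIF3 genes, which form the largest initiation factor, 13 were detected, and the group held 13.1% of the summed TPM. Eif3a, a core subunit, had 113, 103 and 132 TPM and stood above every other eIF3 gene in each library. Eif3c followed with 21.8, 21.3 and 24.8 TPM, and Eif3b with 11.2, 16.5 and 15.9. The other detected subunits averaged between 3.65 TPM (Eif3k) and 13.6 TPM (Eif3g). Eif3j2 was below the threshold at 0.23, 0.63 and 0.76 TPM, and 94.9% of its 31-base words also occur in other genes, so its reads could have been assigned elsewhere.

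Genes of the eIF4 scaffold and cap-binding proteins held 23.1% of the summed TPM. Eif4g2, a scaffold related to eIF4G that lacks the site for eIF4E, had 180, 208 and 182 TPM. Eif4g1, the main scaffold, had 96, 103 and 110 TPM, and Eif4g3 had 73.9, 71.8 and 77 TPM. These 3 genes kept the same order in all libraries and their ranges did not overlap. Eif4e, the cap-binding protein, had 22.3, 25.3 and 30.9 TPM. Its paralog Eif4e1b had no count in the gene table.

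Genes of the helicase and its cofactors held 24.6% of the summed TPM on average, and all 5 were detected. Their sum was 382, 516 and 454 TPM, against 392, 438 and 427 TPM for the scaffold and cap-binding genes, so which group was larger differed between libraries. Eif4a1, the main eIF4A helicase, had 201, 252 and 224 TPM. Eif4a2, its close paralog, had 122, 186 and 150 TPM. Eif4h and Eif4b, both stimulators of the helicase, had 38.1, 56.1 and 51.6 TPM and 8.01, 10.2 and 11.4 TPM. Eif4a1 and Eif4a2 thus stood above both cofactors in each library. Eif4a3, the helicase of the exon junction complex, had 12.8, 11.3 and 16.7 TPM, below Eif4h in each library. Among inhibitors of eIF4E, 2 of 4 were detected. Eif4enif1, which carries eIF4E to the nucleus and to P-bodies, had 8.27, 14 and 9.45 TPM. Eif4ebp3 had 6.53, 6.34 and 5.47 TPM, but it lies wholly inside the coding gene AC115631.1 on the same strand and shares 66.4% of its words with other genes. Eif4ebp1 was at 0.58, 0.67 and 0.5 TPM and Eif4ebp2 at 0.41, 0.74 and 0.73.

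Eif5a, whose hypusine-bearing product helps stalled ribosomes, had 9.98, 12.8 and 12.4 TPM, and its paralog Eif5a2 had 0.05, 0.15 and 0.04. Eif6, which keeps the large subunit from joining too early, had 13.9, 24.4 and 16.1 TPM. Among elongation factors 6 of 7 were detected and the group held 19.2% of the summed TPM. Eef1a1, which delivers aminoacyl-tRNA, had 214, 335 and 228 TPM, the highest mean of all 64 genes in the gene table. Eef2, the translocase, had 36.1, 45.6 and 49.3 TPM, and Eef1g, a subunit of the exchange factor of eEF1A, had 26.9, 34.1 and 34.6. Eef1a2, the copy known from muscle and neurons, had 0, 1 and 0 counts. Of 6 modifiers of elongation factors, 2 were detected, Eef1akmt2 at 4.79 TPM ± 0.8 and Eef2kmt at 2.03 ± 0.548 (SD, n = 3 each). The second table had 4 of 6 detected, with Eef2k and Eef1akmt1 in addition. Eef2k, the kinase that inhibits eEF2, had 1.22, 1.34 and 0.75 TPM from 34, 46 and 53 counts, so the library with the most counts had the lowest TPM.

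Within paralog pairs the difference was usually far larger than the spread between libraries. On the log2(TPM + 1) scale, Eef1a1 exceeded Eef1a2 by 7.98 ± 0.32, Eif1 exceeded Eif1b by 4.55 ± 0.20 and Eif4a1 exceeded Eif4a3 by 3.97 ± 0.36 (SD, n = 3 each). The autosomal Eif1a exceeded the X-linked Eif1ax by 2.94 ± 0.27. Eif4a1 exceeded Eif4a2 by only 0.72, 0.44 and 0.57 in replicates 1, 2 and 3, and always in that direction. Eif4g1 was below Eif4g2 by a mean difference of -0.87 ± 0.14. Eif4e and Eif4e2 were not separated, with differences of 0.35, -0.08 and 0.37. In the second table Eif4e was higher by 1.53, and the mean difference of Eif4ebp1 and Eif4ebp2 was 3.24 there, against -0.03 ± 0.19 in the gene table. Eif4ebp1 minus Eif4ebp3 was -2.17 ± 0.08 in the gene table and 0.42 in the second table, so its direction turned. The order in these 3 pairs thus depended on the quantification. In order of mean log2(TPM + 1), the 3-library ranges of 44 of 47 neighbouring pairs of detected genes overlapped, so ranges alone mostly do not resolve the exact rank. Such ranges ignore that genes share libraries, and a pair can overlap yet keep its order in each library. Eef1a1 (214, 335 and 228 TPM) and Eif4a1 (201, 252 and 224) did so in the gene table. The order within each library was not compared over all pairs.

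The second table gave higher TPM for most factor genes, by a median of 1.56 times for the 48 detected ones, against 1.58 times for 7862 detected coding genes. Over all 64 genes the Spearman correlation of the mean TPM of both tables was 0.92, a description across genes that share the same libraries. Eif4e was at 121, 142 and 125 TPM in the second table, against 22.3, 25.3 and 30.9 in the gene table. Eif4ebp1 was at 13, 19.3 and 15.3 TPM there, against 0.58, 0.67 and 0.5. Eif4e1b was at 20, 20.7 and 16.1 TPM, against no count in the gene table. The range of the second table lay wholly above that of the gene table for these 3 genes and for 43 of the 64 in all, and wholly below it for 0, so a level holds only for the table it comes from. Ranges were not compared over other coding genes, so these numbers have no background. Among detected genes the second-table mean was higher in 46 of 48 factor genes and 7312 of 7862 coding genes. It differed by more than 2-fold in 11 and 2326 of them.

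**Figure D2:**
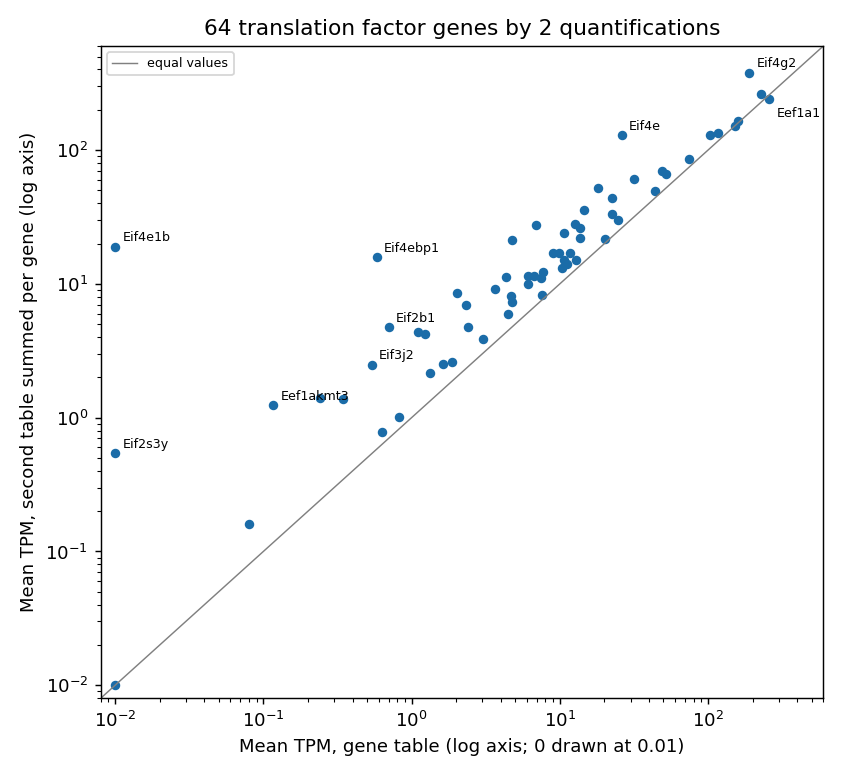
Mean TPM of the 64 factor genes in the second table (vertical) against the gene table (horizontal), both on log axes, with a line of equal values. Most points lie a little above the line. Of the 62 genes with a count in the gene table, 9 are at least 4 times higher in the second table. They are led by Eif4ebp1 (27.2 times), Eef1akmt3 (10.7), Eif2b1 (6.76), Eef1akmt1 (5.79) and Eif4e (4.94). Such genes were not counted over other coding genes. Eif4e1b and Eif2s3y have a value in the second table only.

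Reads are hardest to place in genes with near copies. The median share of 31-base words that also occur in other genes on the same strand was 3.71%, and 13 of 64 factor genes had at least 20%. Eef1a1 shared 49.8%, Eef1g 47.6%, Eif3j1 38.4%, Eif2s3x 35.3%, Eif4a3 31.2% and Eif4a1 31.1%, and reads in these words could belong to another gene. The second-table mean was 0.927 times the gene-table mean for Eef1a1. It was 4.59 times for Eif3j2, which shared 94.9%, and 4.94 times for Eif4e, which shared 8.68%. Whether the share goes with the ratio between tables was not tested. Genes on the opposite strand overlapped 19 factor genes, among them the antisense gene Gm17638 inside Eif3d and the 3′ part of Rev1 at Eif5b. No source used here states whether counting used the strand, and without it reads of such pairs cannot be told apart.

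Library differences among factor genes followed those of coding genes. Among the 39 factor genes that averaged 100 or more expected counts, 32 had their lowest TPM in replicate 1 (82.1%), against 78.2% of 6132 coding genes, and 22 had their highest in replicate 2 (56.4%), against 61.7%. The median deviation of replicate 1 from the mean of replicates 2 and 3 was -0.36 in log2(TPM + 1) for factor genes and -0.31 for coding genes. On CPM, without length scaling, it was 0.01 for factor genes and -0.01 for coding genes. The median SD between libraries was 0.23 for factor genes and 0.24 for coding genes. Eef1d, a subunit of the eEF1A exchange factor, had the largest SD at 0.50, with 2.75, 5.25 and 6.21 TPM from 59, 122 and 121 counts. Eif6 (0.40), Eif1 (0.37), Eif4enif1 (0.36) and Eef1a1 (0.35) followed. Eif4enif1 had 335, 352 and 353 counts, so its 14 TPM in replicate 2 went with a shorter estimated length there, 1472 bases against 2204 and 2183 in replicates 1 and 3. Eif4g3 (0.05) and Eif4e3 (0.08) had the smallest SD, but Eif4e3 lies wholly inside the coding gene Gm20696 on the same strand. With TMM-scaled CPM Eif4g3 was instead among the most variable, with an SD of 0.29, and Eif5b was highest at 0.45. On that scale Eef1d and Eif6 were at 0.39 and 0.25, and Eif1, Eef1a1 and Eif4enif1 at 0.17, 0.16 and 0.13.

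Retained-intron transcripts, which the annotation lists separately from coding ones, were assigned a large part of the factor genes' TPM. The libraries hold chromatin RNA, and reads of RNA not yet spliced were not told apart from such transcripts, here and in the ratios below. They held 44.1%, 48.2% and 43.2% in replicates 1, 2 and 3, with a mean of 45.2% ± 2.64, against 39.4% ± 1.66 over nuclear coding genes. Coding transcripts held 42.2% ± 1.76, against 48.1% ± 1.5. Processed transcripts held 10.7% ± 1.05, against 8.9% ± 0.216, and transcripts subject to nonsense-mediated decay 1.97% ± 0.0709, against 3.61% ± 0.219 (SD, n = 3 each). In the second table retained-intron transcripts held 41.2% ± 1.07, against 33.8% ± 0.736, while the order of processed transcripts turned, at 15% ± 0.97, against 16% ± 0.125 (SD, n = 3 each). Weighting each factor gene equally gave 37.4% retained-intron and 53.6% coding, so the summed share is weighted to the few highest genes. Equal weights were not applied to other coding genes, so these 2 values have no background. The leading transcript was coding in 27 of the 48 detected genes and a retained-intron transcript in 18, against 22 and 20 in the second table. The same transcript led in all 3 libraries in 32 of the 48 genes, and in both tables in 25. Leading transcripts were not counted over other coding genes, so these numbers have no background. Eif2d and Eef1b2 were led by transcripts subject to nonsense-mediated decay, for Eef1b2 in the gene-table quantification only.

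**Figure D3:**
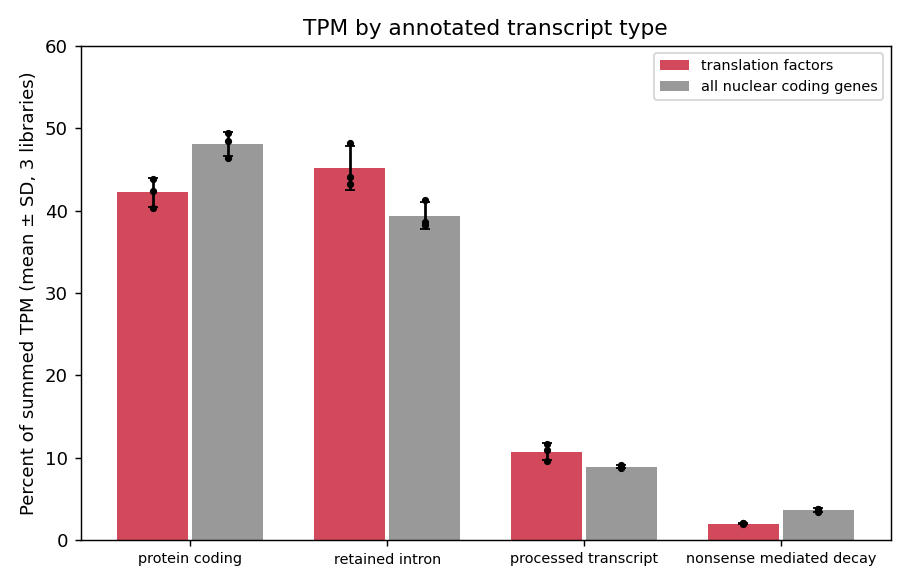
Share of summed TPM by annotated transcript type for the 64 factor genes (red) and all nuclear coding genes (grey), as mean ± SD over 3 libraries with a point per library. Factor genes have more retained-intron TPM, 45.2% against 39.4%, and less coding TPM, 42.2% against 48.1%.

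Within genes, retained-intron and coding transcripts were compared by log2 of their summed TPM, with 0.5 added to each, tested against 0 with limma over 5597 genes. Of 64 factor genes 41 have both classes, and 39 of these passed the filter of 1 TPM on the mean summed TPM and were tested. Retained-intron transcripts were higher in 19 (48.7%), against 35.5% of all genes tested, and coding transcripts in 9 (23.1%), against 31.9%, at a Benjamini-Hochberg adjusted p under 0.05. For the other 11 neither class was higher by this test. Without replicate 2 the retained-intron share of calls was 34.2%, against 31.5% of all genes tested, and without replicate 3 it was 36.8%, against 31.7%. With the mean TPM per annotated transcript both orders turned, with retained-intron transcripts higher in 41% of factor genes, against 42.9%, and coding transcripts in 30.8%, against 22.5%. The excess of retained-intron calls among factor genes thus depended on the libraries and on how transcripts were summed. Factor genes had a median log2 ratio of 0.20, and all genes tested 0.08.

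The 5 highest ratios belonged to Eef1g, Eif2b2, Eif4a1, Eif3l and Eif4a2. Eef1g had 24.9, 30.4 and 30.1 TPM in retained-intron transcripts, against 1.99, 3.34 and 4.56 TPM in its coding transcript. Its log2 ratio was 2.99 (SE 0.18, limma adjusted p = 2.72e-06), and the ranges of the classes did not overlap. Eif4a1 had 112, 145 and 117 TPM in retained-intron transcripts, against 31.7, 31.3 and 36.8 TPM in its coding transcript, a log2 ratio of 1.89 (SE 0.15, limma adjusted p = 1.24e-05). With the mean TPM per annotated transcript in place of the sum, the ratio of Eif4a1 was -0.10, since it has 4 retained-intron transcripts and 1 coding transcript. Eif4a2 had 89.4, 139 and 109 TPM in retained-intron transcripts, against 25.8, 37.5 and 31.9 in coding ones (1.80, SE 0.13, limma adjusted p = 7.33e-06). Eif2b2 was at 2.02 and Eif3l, an accessory eIF3 subunit, at 1.81.

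The 5 lowest ratios belonged to Eif4g3, Eif4e, Eif3b, Eif6 and Eif3a. Eif4g3 had 4.3, 5.68 and 3.44 TPM in its retained-intron transcript, against 61.4, 57.1 and 65 TPM in coding ones. Its log2 ratio was -3.65 (SE 0.18, limma adjusted p = 1.20e-06). Eif3b (-2.53, SE 0.21), Eif6 (-2.02, SE 0.19) and Eif3a (-1.90, SE 0.16) also had coding transcripts higher in every library. Eif4e had 5.79, 0 and 8.9 TPM in its retained-intron transcript, against 16.5, 25.3 and 22 in coding ones (-2.79, SE 0.72, limma adjusted p = 0.00865), and in the second table its ratio was -0.05, which did not pass. The other scaffold paralogs, Eif4g1 (0.12) and Eif4g2 (0.19), passed in neither direction, and in the second table Eif4g1 had coding transcripts higher (-0.33) and Eif4g2 retained-intron ones (0.54). Eif3 subunits were found on both sides, with Eif3d, Eif3e, Eif3f, Eif3g, Eif3i and Eif3l on the retained-intron side and Eif3a, Eif3b and Eif3h on the coding side. Of the 39 genes, 24 were called the same way in both tables. Eif2s1 and Eif1ax were called in opposite ways, and Eif4b and Eif4e were called in the gene-table quantification only. Another 6, Eif3k, Eif4g2, Eif4g1, Eif1ad, Eif3m and Eef2k, were called in the second table only.

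**Figure D4:**
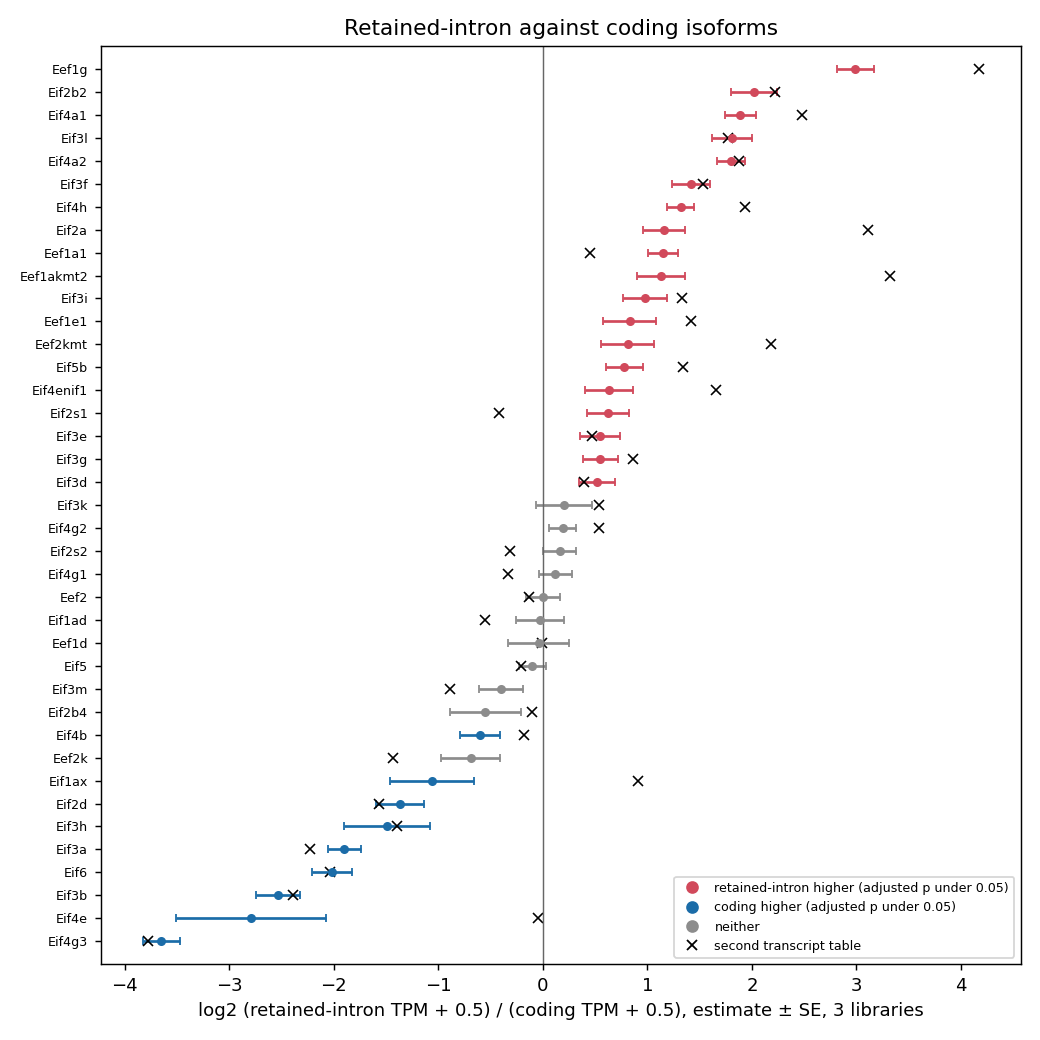
Log2 ratio of retained-intron to coding TPM for the 39 factor genes tested, with circles and bars for the estimate ± SE over 3 libraries and crosses for the second table. Values run from 2.99 for Eef1g down to -3.65 for Eif4g3, and the cross of Eif4e lies near 0, far from its circle.

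Several factor genes carry small nucleolar RNA (snoRNA) genes in their introns. On the same strand, 8 factor genes held 17 annotated snoRNA or small Cajal body RNA genes, and 7 of these were detected. Genes this short reach 1 TPM with few counts, and Snora28 inside Eif5 had 447, 118 and 379 TPM from 14, 2 and 7 counts. Gm22988, inside Eif4a1 (mm10 chromosome 11, 69669635 to 69669778, minus strand), had 10294, 5109 and 4937 counts, against 4846, 5467 and 4663 for Eif4a1 itself. Gm26447, inside Eif4a2 (chromosome 16, 23111301 to 23111429, plus strand), had 2864, 1989 and 1719 counts, against 2282, 3012 and 2495 for Eif4a2. Gm23262, inside Eif4g2, had 1710, 429 and 762 counts, against 3398, 3807 and 3491 for its host. The snoRNA inside Eif4a1 was counted more often than the host in replicates 1 and 3, and the snoRNAs of Eif4a2 and Eif4g2 had their highest counts in replicate 1.

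In 4 of these hosts, annotated retained-intron transcripts overlap a snoRNA gene with their exons. For Eif4a2, 8 of 15 retained-intron transcripts did so and held 57.7, 90.4 and 72.3 TPM, which is 65.2% ± 0.894 of the retained-intron TPM. For Eif5, 2 of 7 held 35.8, 57.3 and 40.2 TPM, or 65.7% ± 0.575, and for Eif4a1, 1 of 4 held 40.2, 53.2 and 44.3 TPM, or 36.8% ± 1.04. For Eif4g1 the share was 19.7% ± 9.05. When such transcripts were left out of every gene, an alternative chosen after these values were seen, the log2 ratio of Eif4a2 was 0.29 (SE 0.13, limma adjusted p = 0.0807), against 1.80 with them, and it no longer passed. That of Eif4a1 was 1.23 (SE 0.15, limma adjusted p = 1.53e-04), against 1.89. Eif5, at -0.10 with them, had coding transcripts higher without them, at -1.63 (SE 0.13, limma adjusted p = 1.63e-05). Only retained-intron transcripts were left out and coding ones were kept whole. The ratios of these hosts and the share below could thus only fall. The share of retained-intron TPM over all 64 genes was then 39.4%, with these transcripts left out of the total as well. The share over nuclear coding genes was not recomputed in this way, so this value has no background. How many reads of these transcripts came from the snoRNAs was not tested.

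**Figure D5:**
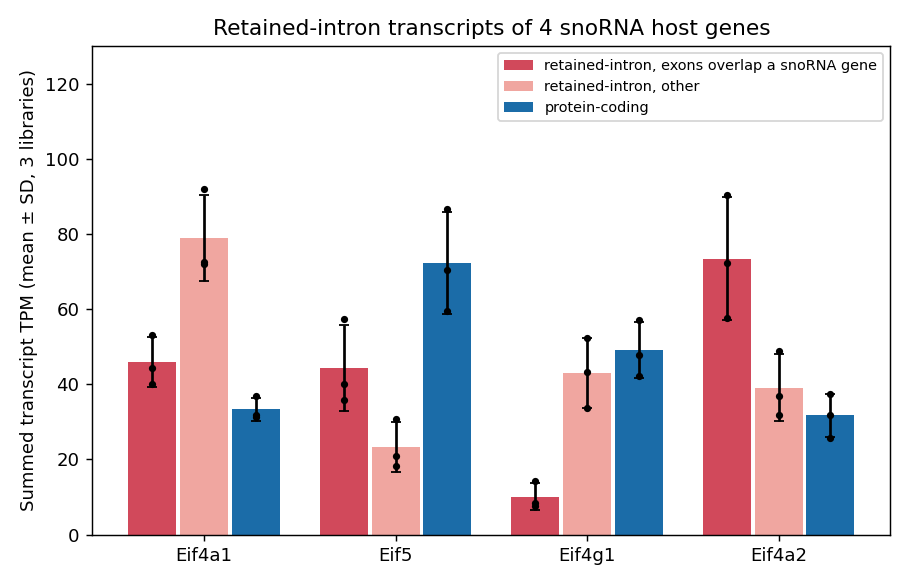
TPM of retained-intron transcripts whose exons overlap a snoRNA gene (red), other retained-intron transcripts (pink) and coding transcripts (blue) for 4 snoRNA host genes, as mean ± SD over 3 libraries with a point per library. In Eif4a2 the red bar, 73.4 TPM, is above the pink one at 39.1 and the blue one at 31.7, and in Eif5 the blue bar is highest at 72.2.

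Genes that act on the factors were also measured. Of 8 genes of eIF2 alpha phosphorylation, 7 were detected. Ppp1r15a, the inducible subunit of the phosphatase that restores eIF2, had 108, 65 and 144 TPM and was lowest in replicate 2. Impact, which restrains the kinase GCN2, had 46.8, 65.1 and 49.3 TPM, and Eif2ak2, the RNA-activated kinase PKR, had 50.9, 51.9 and 44.6. Eif2ak3, the kinase PERK of the endoplasmic reticulum, was lowest at 0.64, 0.55 and 0.53 TPM. Of 13 genes of the mTOR and MNK inputs to eIF4E, 11 were detected. The highest means were those of Larp1 at 36.6 TPM ± 7.75, which binds mRNAs with a 5′ pyrimidine tract, Rptor at 33.1 ± 5.49 and Rheb at 26 ± 1.73, while Pdcd4, an inhibitor of eIF4A, was lowest in the gene table at 0.393 ± 0.136 (SD, n = 3 each).

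All 11 genes of poly(A) binding and accessory initiation were detected. Pabpc1, the cytoplasmic poly(A)-binding protein, had 190, 169 and 224 TPM, which overlaps the ranges of Eif4a1 and Eif4g2, and Ddx3x had 42.8 TPM ± 3.1. Dhx29 at 1.39 ± 0.255 and Paip2b at 1.45 ± 0.58 (SD, n = 3 each) were the lowest of that list and overlapped. Of 6 termination and recycling genes 4 were detected, with the release factor genes Gspt1 at 40 TPM ± 3.37 and Etf1 at 19.2 ± 1.28 and Gspt2 lowest at 0.37 ± 0.0346. Of 9 hypusine and diphthamide enzymes 5 were detected, led by Dhps, which starts hypusine synthesis on eIF5A, at 26.3 TPM ± 2.89, and Dph7 was lowest at 0.313 ± 0.205. Of 9 mitochondrial translation factors 5 were detected, with Gfm2 highest at 8.58 TPM ± 0.987 and Mtrf1 lowest at 0.17 ± 0.13. The median log2(TPM + 1) of the mitochondrial factors was 1.92 ± 0.08, against 3.61 ± 0.18 for the cytosolic elongation factors and 3.31 ± 0.26 for eIF3 (SD, n = 3 each).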

How the data were processed

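For each of 3 libraries a gene table and its transcript table gave expected counts and TPM, and the second transcript table gave estimated counts and TPM. Per the file headers their columns are named as RSEM and kallisto name theirs. Expected counts and estimated counts, per the file headers, are the authors' estimates for each gene or transcript and were used as deposited. TPM as deposited by the authors was scaled by length over all rows of a table. Per the labels the assembly was mm10 and the annotation GENCODE M21, and no source used here names the aligner or program versions. Rows that name no gene held 1.4%, 0.352% and 0.354% of expected counts and stayed out of gene totals. The annotation held all 55536 gene identifiers. Chi-square per degree of freedom between library pairs was 15.3 to 36.9, so none was a copy.

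Levels are gene-table TPM with means and SDs over 3 libraries. Summed second-table TPM served as an alternative. Isoform ratios were tested with limma 3.58.1 (intercept only, variance trend) in genes with a mean summed TPM of at least 1, and the test was checked on simulated data. TMM factors came from edgeR 4.0.16 and size factors from DESeq2 1.42.0, on expected counts rounded to whole numbers, with R 4.3.3 and python 3.11.15. Named genes are the 3 highest and the lowest of each role group, all paralogs, the 5 highest and 5 lowest isoform ratios, the most and least variable genes, and the ends of each pathway list, and others were named after their values were seen. The members and lists were chosen with earlier results of these data known.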

Additional observations from a re-analysis of the deposited data

Results flagged for a closer look

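Signals were flagged for 3 genes. Eif4e1b and Eif2s3y had one in the second table only, and Eif4a-ps4, left out of the factor genes, had one in both tables. Eif4e1b, an eIF4E paralog known from oocytes, averaged 18.9 TPM in the second table, from 195 to 234 estimated counts, while the gene table gave it no count. Eif2s3y, the Y-linked eIF2 gamma gene, averaged 0.541 TPM in the second table, from 19 to 47 estimated counts, and also had no count in the gene table. Its coding transcript was at 0 TPM in the second table, while its retained-intron transcripts Eif2s3y-205 and Eif2s3y-202 averaged 0.499 and 0.0426 TPM. Eif4a-ps4, a processed pseudogene of the helicase family that has no coding transcript, averaged 4.78 TPM in the gene table, with 1.73, 7.55 and 5.05 TPM in replicates 1, 2 and 3. In the second table it had 1.37, 8.13 and 11.1 TPM. The cause of the differences between tables for Eif4e1b and Eif2s3y was not tested.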

How the results depend on the processing

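The median log2(TPM + 1) of factor genes, 3.09, was 3.91 with the second table, 5.15 with TPM rescaled over nuclear coding genes and 3.52 with CPM. Its difference from nuclear coding genes, 2.80, was 4.59 with a pseudocount of 0.1, 4.16 rescaled and 3.02 with CPM. The number detected ranged from 36 at 5 TPM to 58 with rescaled TPM. The median SD, 0.23, was 0.12 with the second table and 0.13 with TMM factors. The retained-intron share, 45.2%, was 41.2% with the second table, 37.4% with equal weights and 39.4% without transcripts that overlap a snoRNA, and the coding share, 42.2%, was 53.6% and 46.6% in the last 2 cases. The median isoform ratio, 0.20 against 0.08 over all genes tested, was 0.55 with a filter of 5 TPM, against 0.20. With the second table it was 0.42, against 0.30, and it was 0.21 to 0.38 when a replicate was left out, against 0.04 to 0.11. The number of genes with retained-intron transcripts higher, 19, was 13 without replicate 2 (34.2%, against 31.5% of all genes tested) and 14 without replicate 3 (36.8%, against 31.7%), and 21 with the second table (52.5%, against 46.7%), where the number with coding transcripts higher, 9, was 12 (30%, against 32.4%). With the mean TPM per annotated transcript these numbers were 16 (41%, against 42.9%) and 12 (30.8%, against 22.5%).

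The log2 ratio changed sign with the mean TPM per transcript for Eif4a1 (-0.10), Eif5b (-0.62), Eif3e (-0.35), Eif3g (-0.88), Eif3d (-0.60), Eef1d (0.92), Eif3m (0.85), Eif2b4 (0.21) and Eef2k (0.10). With the second table it did so for Eif2s1 (-0.42), Eif2s2 (-0.31), Eif4g1 (-0.33) and Eif1ax (0.91), and without snoRNA transcripts for Eif4g1 (-0.20). When a replicate was left out it ranged from -0.10 to 0.47 for Eif3k, -0.07 to 0.25 for Eif4g1, -0.10 to 0.16 for Eef2, -0.08 to 0.03 for Eif1ad and -0.47 to 0.20 for Eef1d. The causes were not tested. No paired analysis was possible because all libraries belong to 1 group. Eif2b4 and Eef1akmt3 rest on few gene-table counts, and the second table gave Eef1akmt3 21, 116 and 87 counts, against 1, 10 and 4 in the gene table.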
